A study of Mus musculus with 16 samples.

Results

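A set of 10 genes of mouse liver that pulses of growth hormone are known to induce in males was followed: Hsd3b5, Cyp4a12a, Cyp4a12b, Elovl3, Slco1a1, Selenbp2, Nudt7, Cyp2d9, Serpina1e and Susd4. They were chosen by name for this role, with earlier results of these data known. In the GENCODE annotation on GRCm38 they lie on chromosome 3 (Hsd3b5 and Selenbp2), 4 (Cyp4a12a and Cyp4a12b), 19 (Elovl3), 6 (Slco1a1), 8 (Nudt7), 15 (Cyp2d9), 12 (Serpina1e) and 1 (Susd4). All 10 are among the 40840 gene symbols of the count table, and all 10 were among the 14484 genes with enough reads to test. The pituitary of a male mouse releases growth hormone in pulses separated by quiet intervals, while in a female the hormone is present almost continuously. Each pulse acts through the growth hormone receptor (Ghr) and the kinase Jak2 to switch on the transcription factor Stat5b, which raises male-type liver genes and, with the repressors Bcl6 and Cux2, sets the balance between male-type and female-type liver expression. Loss of the pulses lowers the male-type genes and lets many female-type genes come up.

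Liver RNA was sequenced from male C57BL/6J mice aged 12 to 16 weeks that received the platinum drug oxaliplatin at 12 mg/kg, injected into the abdomen. The 4 groups of 4 libraries were wild type (WT) dosed at circadian time 8 (CT8), WT dosed at CT16, and Cry1-/-Cry2-/- double knockouts (CryDKO) dosed at CT8 or at CT16. Cry1 and Cry2 encode the cryptochromes, repressors of the circadian clock. The double knockouts were bred from Cry1/2 heterozygous mice. Animals ate freely, were kept for 3 weeks on a cycle of 12 hours of light and 12 of darkness and then in constant darkness from 3 days before the drug, and all got it, so no group shows liver without it. The labels mention dosing on 3 days and also a single dose. They give no hour of liver collection, so time of dosing and clock phase at collection cannot be told apart. They do not say that each library is a separate animal, and p-values measure only the spread between libraries.

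Libraries are named here by the running number in the count table: 1 to 4 for WT at CT8, 5 to 8 for WT at CT16, 9, 10, 15 and 16 for CryDKO at CT8, and 11 to 14 for CryDKO at CT16. They held 18083916 to 29934138 reads in genes. Levels are given as CPM, the reads of a gene relative to the TMM-scaled size of the library, and differences are log2 changes ± SE from edgeR's quasi-likelihood test, called at a Benjamini-Hochberg adjusted p under 0.05. Cry2 CPM was 23.1 to 33.3 in CryDKO and 39.9 to 58.9 in WT, lower at CT8 (-0.74 ± 0.14, adjusted p = 0.000503) and at CT16 (-0.94 ± 0.14, adjusted p = 0.000199) by edgeR. Cry1 CPM was 20.5 to 29.0 in CryDKO and 5.14 to 15.9 in WT, higher at CT8 (1.04 ± 0.17) and CT16 (2.15 ± 0.18). Cry1 read counts thus do not by themselves mark the deletion in the libraries labelled CryDKO, and Cry2 reads were lower there but not absent. The tissue label was met in every library: the 11 hepatocyte markers found in the table summed to between 54734 and 164807 CPM. Xist, the RNA of the inactive X chromosome of females, was at 0.712 CPM or less in all 16 libraries.

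Against WT, 3 of the 10 genes fell in CryDKO at CT8 (Hsd3b5, Nudt7 and Selenbp2) and 2 fell at CT16 (Selenbp2 and Nudt7), and none rose. Over all genes tested, 20.3% were called lower and 18.7% higher at CT8, and 9.15% lower and 9% higher at CT16. In counts these were 2943 lower and 2706 higher at CT8, a split that scaling by library size alone moved to 5127 and 961, with 5 of the 10 genes called lower. At CT16 they were 1326 lower and 1303 higher, moved to 1883 and 605 with 2 of the 10 genes called lower. All 10 fitted changes were below 0 at CT8, with a median of -1.72, and 9 of 10 at CT16, with a median of -0.64; the median over all genes tested was -0.02 and -0.01. At CT8 the CryDKO values of 5 of the 10 genes lay entirely under those of WT, as did those of 20.5% of all genes tested. At CT16 this held for Selenbp2 alone among the 10, and for 10.2% of all genes. In bulk RNA, fewer cells that make a transcript and less transcript per cell cannot be told apart.

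**Figure D1:**
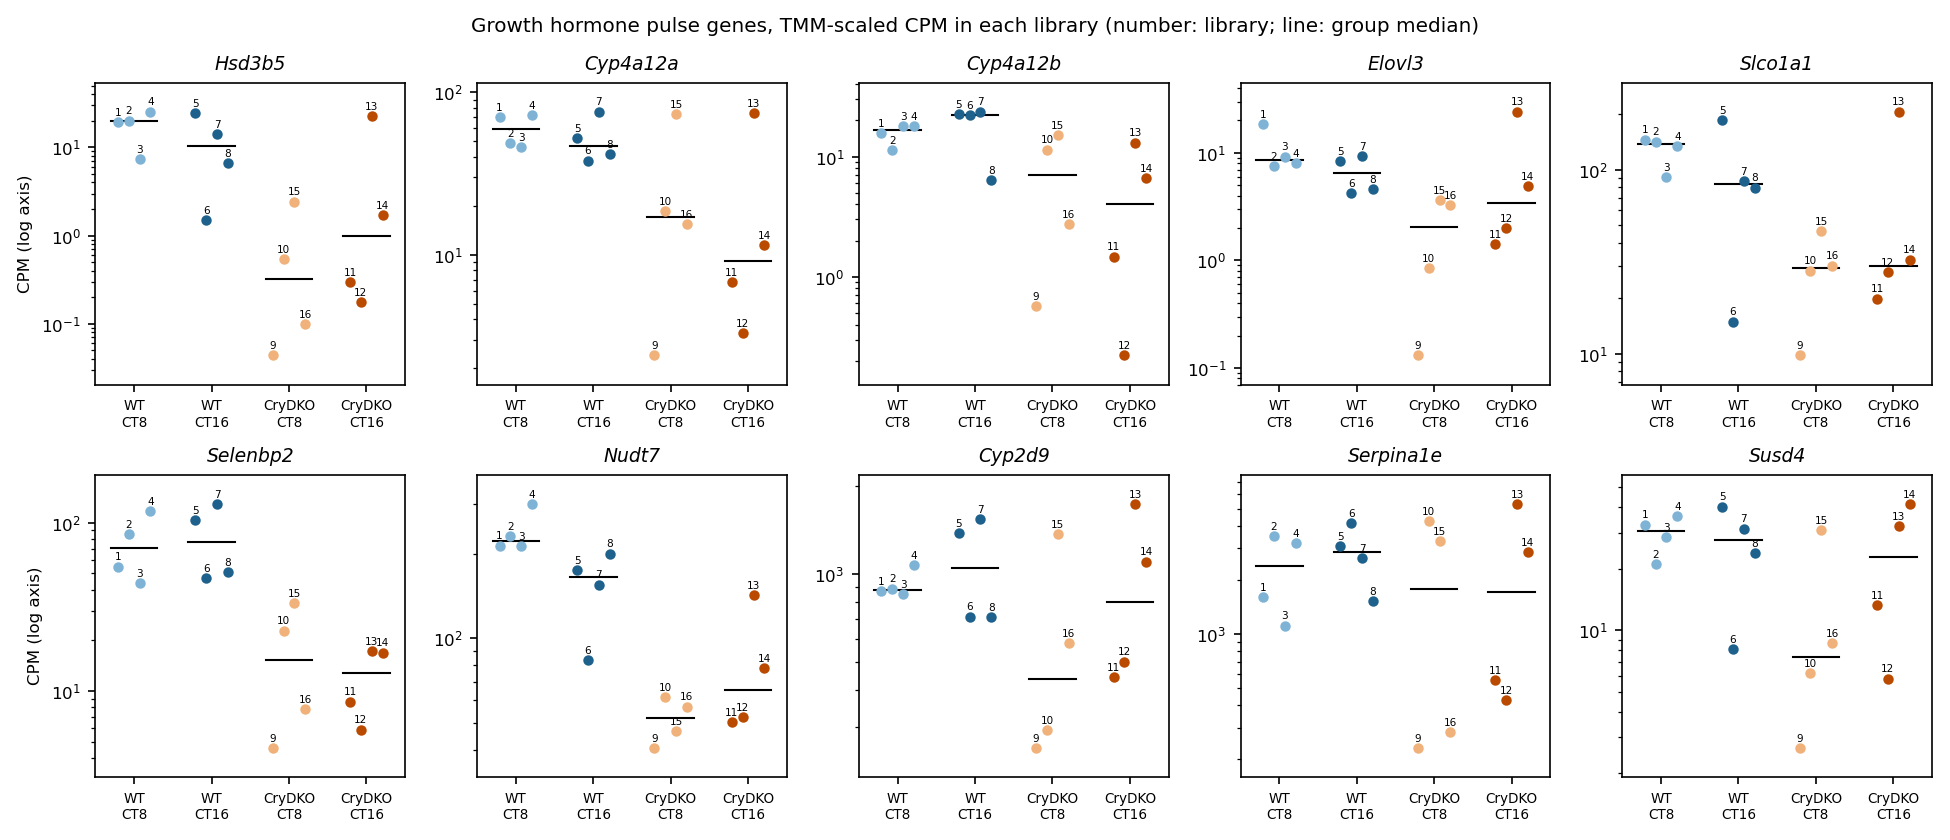
CPM on a log axis of each of the 10 genes in all 16 libraries, by group; each point is a library with its number, and the line is the median of the 4 libraries. The CryDKO points spread over a wider range than the WT points for most genes: library 9 is the lowest point of its group in all 10 panels, and library 13 the highest of its group in 9.

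Among the steroid enzymes, Hsd3b5 encodes a liver 3-beta-hydroxysteroid dehydrogenase family member typical of the adult male. Hsd3b5 CPM was 19.5, 20.1, 7.38 and 25.4 in WT at CT8 (libraries 1 to 4) and 24.5, 1.51, 14.2 and 6.69 in WT at CT16 (libraries 5 to 8). CryDKO CPM was 0.0436, 0.539, 2.43 and 0.0991 at CT8 (libraries 9, 10, 15 and 16) and 0.294, 0.177, 22.6 and 1.69 at CT16 (libraries 11 to 14). The CT8 groups did not overlap; the CT16 groups did, since library 13 stood at the WT level and library 6 (WT) close to CryDKO. Libraries 9 and 16 held only 1 and 2 Hsd3b5 reads, against 176 to 677 reads in WT at CT8. Hsd3b5 fell in CryDKO at CT8 (log2 change -4.61 ± 1.49, 24.4-fold lower, adjusted p = 0.0278 by edgeR). That call was lost when library 2, 4, 9, 10 or 16 was left out, with adjusted p from 0.0529 to 0.0724. The size of the change also moved, to -4.15 without library 9 and to -6.27 without library 15 (adjusted p = 0.0263). The change at CT16 was -0.93 ± 1.21 (adjusted p = 0.631), and without library 13 it was -4.02 (adjusted p = 0.0525).

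Cyp2d9 encodes a male-type cytochrome P450 that hydroxylates testosterone. Cyp2d9 CPM was 869.8, 889, 852 and 1071 in WT at CT8 (libraries 1 to 4) and 1379, 713, 1536 and 711 in WT at CT16 (libraries 5 to 8). The CryDKO values were 253, 292, 1364 and 580.2 at CT8 (libraries 9, 10, 15 and 16) and 443, 501, 1729.7 and 1101 at CT16 (libraries 11 to 14). Library 15 was above and the other CryDKO libraries at CT8 were under every WT library of that time; at CT16 the groups overlapped. The changes were -0.56 ± 0.53 at CT8 (adjusted p = 0.422) and -0.20 ± 0.53 at CT16 (adjusted p = 0.825), neither called by edgeR. Without library 15, Cyp2d9 was called lower at CT8 (-1.29, adjusted p = 0.0438).

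In fatty acid metabolism, Cyp4a12a and Cyp4a12b encode male-type P450 enzymes that hydroxylate the end of fatty acids such as arachidonic acid. Cyp4a12a CPM was 70.5, 48.4, 46.1 and 71.9 in WT at CT8 (libraries 1 to 4) and 52.3, 38.0, 75.8 and 41.6 in WT at CT16 (libraries 5 to 8). Knockout libraries held 2.40, 18.6, 73.3 and 15.4 at CT8 (libraries 9, 10, 15 and 16) and 6.76, 3.27, 74.5 and 11.5 at CT16 (libraries 11 to 14). Libraries 15 and 13 reached the highest WT values, while the other 6 CryDKO libraries lay under every WT library. Cyp4a12b CPM followed with 15.6, 11.3, 18.0 and 18.0 in WT at CT8, 22.4, 22.3, 23.6 and 6.38 in WT at CT16, 0.567, 11.4, 15.1 and 2.73 in CryDKO at CT8 and 1.47, 0.221, 13.1 and 6.61 in CryDKO at CT16. Neither was called at CT8 (-1.12 ± 0.95 and -1.09 ± 0.93, adjusted p = 0.374 and 0.375 by edgeR) or at CT16 (-1.12 ± 0.95 and -1.82 ± 0.95, adjusted p = 0.446 and 0.208). Without library 15 the CT8 changes were -2.29 for Cyp4a12a (adjusted p = 0.0935) and -1.67 for Cyp4a12b (adjusted p = 0.235), and without library 13 the CT16 changes were -2.86 (adjusted p = 0.0555) and -2.76 (adjusted p = 0.111). Without library 9 the CT8 changes were -0.69 for Cyp4a12a and -0.66 for Cyp4a12b. By limma voom Cyp4a12a was called lower at CT8 (adjusted p = 0.0411) and Cyp4a12b at CT16 (adjusted p = 0.0441). For Cyp4a12b the genotypes overlapped at both times. Cyp4a12a shares 25.6% of its 150-base windows with other genes, the most with Cyp4a12b, so counts may be split between this pair. Summed counts of the pair were not called either (-1.11 ± 0.94 at CT8, adjusted p = 0.371, and -1.27 ± 0.94 at CT16, adjusted p = 0.378 by edgeR).

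Elovl3 encodes an elongase of very long chain fatty acids. Elovl3 CPM was 18.6, 7.52, 9.23 and 8.03 in WT at CT8 (libraries 1 to 4) and 8.42, 4.21, 9.33 and 4.60 in WT at CT16 (libraries 5 to 8). Values in CryDKO were 0.131, 0.854, 3.65 and 3.27 at CT8 (libraries 9, 10, 15 and 16) and 1.41, 1.99, 24.1 and 4.92 at CT16 (libraries 11 to 14). At CT8 every CryDKO library was under every WT library, and at CT16 library 13 was the highest of all 16. The change at CT8 was -2.48 ± 0.94 (adjusted p = 0.0522 by edgeR), which missed the threshold although the groups did not overlap. It was called in 8 of 23 alternative fits, including DESeq2 (adjusted p = 0.0189) and limma voom (adjusted p = 0.00805). At CT16 it was 0.28 ± 0.86 (adjusted p = 0.85), and without library 13 it was -1.25 (adjusted p = 0.292).

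Nudt7 encodes a peroxisomal hydrolase that degrades coenzyme A. Nudt7 CPM was 214, 231, 213 and 300.3 in WT at CT8 (libraries 1 to 4) and 175, 83.5, 155 and 200.1 in WT at CT16 (libraries 5 to 8). CryDKO CPM was 40.6, 61.8, 46.5 and 57 at CT8 (libraries 9, 10, 15 and 16) and 50.1, 52.2, 142 and 78.2 at CT16 (libraries 11 to 14). The CryDKO libraries at CT8 lay close together and far under WT. Nudt7 fell at CT8 (log2 change -2.22 ± 0.32, 4.66-fold lower, adjusted p = 0.000115 by edgeR), a call made in all 23 alternative fits. At CT16 library 13 was above WT library 6 and the groups overlapped. Nudt7 fell there (-0.93 ± 0.31, 1.90-fold lower, adjusted p = 0.0450 by edgeR), but the call was made in only 10 of 23 alternative fits. It was lost when library 1, 2, 3, 5, 7, 8, 11, 12, 14, 15 or 16 was left out, with adjusted p from 0.0512 to 0.124, and kept at -1.35 without library 13 (adjusted p = 0.00239).

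The transporter of the set, Slco1a1, encodes a hepatocyte uptake carrier for organic anions such as bile acids and steroid conjugates. Slco1a1 CPM was 145, 142, 91.2 and 134 in WT at CT8 (libraries 1 to 4) and 186, 14.9, 86.4 and 79.7 in WT at CT16 (libraries 5 to 8). The CryDKO values were 9.76, 28.3, 46.4 and 30.1 at CT8 (libraries 9, 10, 15 and 16) and 19.9, 27.7, 206 and 32.4 at CT16 (libraries 11 to 14). At CT8 the groups did not overlap, and at CT16 library 13 was the highest and library 6 the lowest of the 8. The change at CT8 was -2.16 ± 0.84 (adjusted p = 0.0588 by edgeR) and missed the threshold, though it was called in 7 of 23 alternative fits, among them DESeq2 (adjusted p = 0.0214). At CT16 it was -0.36 ± 0.81 (adjusted p = 0.793), and -1.78 without library 13 (adjusted p = 0.11). The summed counts of the 4 Slco1a genes fell at CT8 (-1.01 ± 0.30, adjusted p = 0.0156 by edgeR).

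Selenbp2 encodes a cytosolic selenium-binding protein of liver. Selenbp2 CPM was 54.9, 85.8, 43.7 and 117 in WT at CT8 (libraries 1 to 4) and 104, 46.8, 129 and 50.7 in WT at CT16 (libraries 5 to 8). Knockout libraries held 4.58, 22.8, 33.2 and 7.78 at CT8 (libraries 9, 10, 15 and 16) and 8.64, 5.88, 17.2 and 16.9 at CT16 (libraries 11 to 14). The genotypes did not overlap at either time, and library 13 was here at 21.8% of the WT mean, though above that mean for 7 of the 10 genes. Selenbp2 fell at CT8 (log2 change -2.14 ± 0.62, 4.42-fold lower, adjusted p = 0.0163 by edgeR) and at CT16 (-2.77 ± 0.64, 6.80-fold lower, adjusted p = 0.0111). The CT16 call was made in all 23 alternative fits. The CT8 call was lost only without library 4 (-1.82, adjusted p = 0.0512).

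Its paralog Selenbp1, whose upstream sequence is almost the same, was not called lower. Selenbp1 CPM was 218, 261, 304 and 276 in WT at CT8, 390.1, 494, 431 and 277 in WT at CT16, 291, 578, 436 and 350.4 in CryDKO at CT8 and 545, 311, 315 and 515 in CryDKO at CT16. It was higher in CryDKO at CT8 (0.64 ± 0.23, adjusted p = 0.0347 by edgeR), a call lost when scaling by library size alone (0.30, adjusted p = 0.246), and at CT16 the change was 0.08 ± 0.23 (adjusted p = 0.835). Of the 150-base windows of Selenbp2, 6.94% are shared with other genes, the most with Selenbp1. Summed, the pair changed by 0.34 ± 0.24 at CT8 (adjusted p = 0.259) and by -0.15 ± 0.24 at CT16 (adjusted p = 0.697), neither called by edgeR. The bases upstream of both starts are printed because genes that differ in response share them: from -243 to -2 before the Selenbp2 start (chr3:94693330-94693571, plus strand) and from -241 to -12 before the Selenbp1 start (chr3:94932842-94933071, plus strand), in RefSeq on GRCm38.p6. Of 230 aligned bases 220 are identical (95.7%), and capitals mark bases that differ or have no partner.

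Selenbp2: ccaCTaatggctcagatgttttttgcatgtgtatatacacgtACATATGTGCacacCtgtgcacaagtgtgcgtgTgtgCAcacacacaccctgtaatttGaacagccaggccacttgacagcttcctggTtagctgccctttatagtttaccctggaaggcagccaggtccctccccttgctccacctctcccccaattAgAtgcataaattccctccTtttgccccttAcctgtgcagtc

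Selenbp1: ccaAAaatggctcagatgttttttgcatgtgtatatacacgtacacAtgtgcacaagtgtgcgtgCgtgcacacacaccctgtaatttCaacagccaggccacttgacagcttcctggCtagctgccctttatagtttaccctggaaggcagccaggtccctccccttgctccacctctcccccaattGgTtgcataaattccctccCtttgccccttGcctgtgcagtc

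The secreted and surface proteins came last. Serpina1e encodes a member of the alpha-1-antitrypsin family of protease inhibitors, the most abundant of the 10 transcripts per length. Serpina1e CPM was 1609, 3502, 1115 and 3198 in WT at CT8 (libraries 1 to 4) and 3084, 4155, 2662 and 1519.8 in WT at CT16 (libraries 5 to 8). Values in CryDKO were 231, 4247, 3292 and 284 at CT8 (libraries 9, 10, 15 and 16) and 553, 426, 5293 and 2875 at CT16 (libraries 11 to 14). In CryDKO the libraries stood either between 2875 and 5293 CPM (10, 15, 13 and 14) or between 231 and 553 CPM (9, 16, 11 and 12), and the latter were under every WT library. The group changes had wide errors: -0.23 ± 0.97 at CT8 (adjusted p = 0.871) and -0.32 ± 0.97 at CT16 (adjusted p = 0.848), not called by edgeR. Single libraries set these values: the CT8 change was 0.19 without library 9 (adjusted p = 0.892) and -0.88 without library 10 (adjusted p = 0.544), and the CT16 change was -1.15 without library 13 (adjusted p = 0.497) and 0.03 without library 12.

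The close copy Serpina1b lay between 4199.5 and 6022 CPM in all 8 CryDKO libraries. Serpina1b CPM was 2612, 2835, 3036 and 2971 in WT at CT8, 4315, 5172, 4696 and 2881 in WT at CT16, 4199.5, 5686, 6022 and 4960.1 in CryDKO at CT8 and 4981, 5175, 4562 and 5852 in CryDKO at CT16. Serpina1b was higher in CryDKO at CT8 (0.87 ± 0.20, adjusted p = 0.00211 by edgeR) and changed by 0.27 ± 0.19 at CT16 (adjusted p = 0.351, not called). Serpina1e shares 7.57% of its 150-base windows with other genes, the most with Serpina1b, and counting could move reads between the copies. The 5 Serpina1 genes summed were not called at CT8 (0.37 ± 0.26, adjusted p = 0.262 by edgeR) or CT16 (SE 0.26, adjusted p = 0.993). The upstream bases of the pair are printed because they are nearly the same. At CT8 only Serpina1b was called, and the copies were not tested against each other. The bases are on the minus strand in RefSeq on GRCm38.p6: from -250 to -53 before the Serpina1e start (chr12:103956950-103957147) and from -200 to -1 before the Serpina1b start (chr12:103738190-103738389). Of 198 aligned bases 194 are identical (98%), and capitals again mark bases that differ or have no partner.

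Serpina1e: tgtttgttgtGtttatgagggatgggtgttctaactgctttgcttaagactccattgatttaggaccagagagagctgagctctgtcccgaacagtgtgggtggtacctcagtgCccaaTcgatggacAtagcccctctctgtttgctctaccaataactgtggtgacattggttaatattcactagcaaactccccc

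Serpina1b: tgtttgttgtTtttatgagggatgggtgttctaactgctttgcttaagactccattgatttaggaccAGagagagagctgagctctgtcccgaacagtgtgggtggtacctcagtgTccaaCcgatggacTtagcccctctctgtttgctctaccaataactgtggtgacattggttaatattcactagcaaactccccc

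Susd4 encodes a regulator of complement with sushi domains. Susd4 CPM was 32.8, 21.1, 28.5 and 36.2 in WT at CT8 (libraries 1 to 4) and 40.1, 8.09, 31.4 and 23.7 in WT at CT16 (libraries 5 to 8). CryDKO CPM was 2.66, 6.16, 30.9 and 8.67 at CT8 (libraries 9, 10, 15 and 16) and 13.2, 5.79, 32.1 and 41.2 at CT16 (libraries 11 to 14). Libraries 15 and 13 lay within the WT range of their time and library 14 just above it, and libraries 9, 10, 16 and 12 under all WT libraries of their time. The changes were -1.31 ± 0.75 at CT8 (adjusted p = 0.184) and -0.16 ± 0.73 at CT16 (adjusted p = 0.9), not called by edgeR. Without library 15, Susd4 was called lower at CT8 (-2.34, adjusted p = 0.0268).

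**Figure D2:**
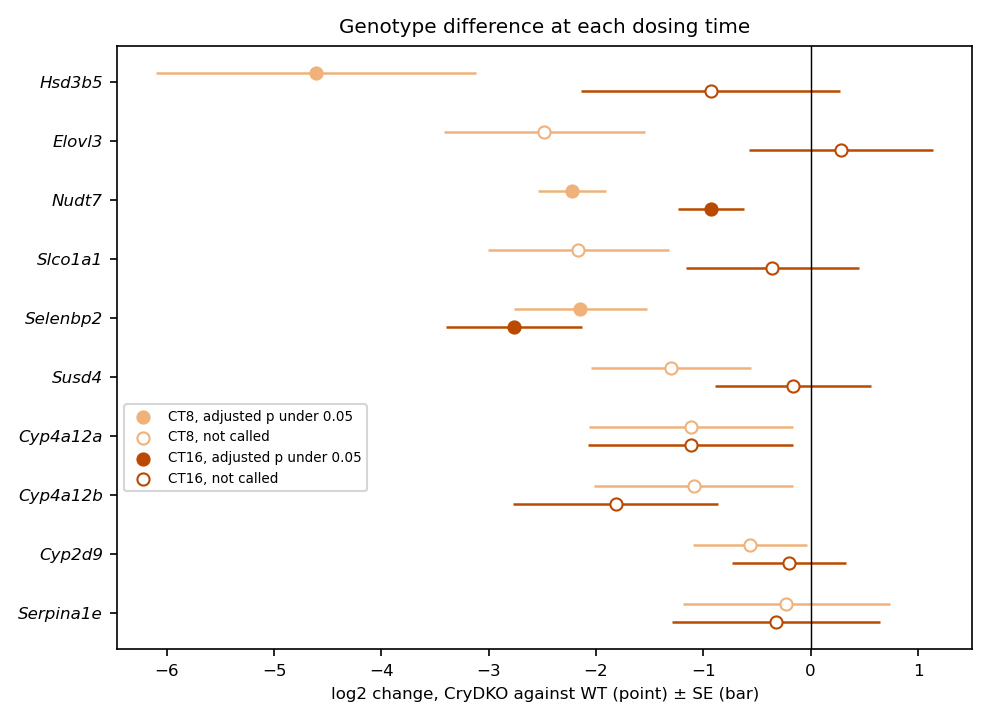
Log2 change of CryDKO against WT (horizontal axis; point, with ± SE as the bar) for each gene at CT8 and CT16; filled points passed an adjusted p of 0.05. Hsd3b5, Nudt7 and Selenbp2 passed at CT8, Selenbp2 and Nudt7 at CT16. Bars of the changes that did not pass are wide, from 0.53 log2 units for Cyp2d9 to 1.21 for Hsd3b5 at CT16. The widest bar is that of a change that passed, Hsd3b5 at CT8 (1.49).

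An upstream sequence was in the RefSeq table for 7 of the 10 genes, the others being Cyp4a12a, Cyp4a12b and Elovl3. Of the 7, 0 held TTCNNNGAA, the sequence Stat5 recognises, within 250 bases before the start, against 8.13% of 27025 genes. The E-box CACGTG and TTANGTAA, searched on both strands like the other motifs, were also in 0 of 7 (6.86% and 2.44% of genes). TAGGTCA was in 1 of 7, Slco1a1 (2.55% of genes). No match says only that these letters are absent from this window.

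Per kilobase of exon, the order of the levels in WT at CT8 ran from Serpina1e (1457 ± 725 CPM per kilobase, SD, n = 4) over Cyp2d9 (346 ± 38.3), Nudt7 (42.7 ± 7.34), Selenbp2 (33.2 ± 14.5), Cyp4a12a (24.4 ± 5.72), Slco1a1 (24.3 ± 4.76), Hsd3b5 (11.7 ± 4.92), Susd4 (7.68 ± 1.69) and Cyp4a12b (6.57 ± 1.33) to Elovl3 (5.50 ± 2.65). Neighbours from Nudt7 to Slco1a1 and from Hsd3b5 to Elovl3 did not differ by more than the sum of their SDs; Serpina1e, Cyp2d9 and Nudt7 were each further apart than that.

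Most of the 10 genes were low in library 9 and high in library 13, but in libraries 10, 15 and 14 they went apart. In library 10, Serpina1e was at 163% of the mean of the WT libraries and Hsd3b5 at 3.62%. In libraries 16, 11 and 12 all 10 genes were below that mean, with highest values of 57.9%, 47.7% and 49.9%. Library 9 had a median of 7.33% of the mean of the 8 WT libraries over the 10 genes, and it was the lowest of all 16 libraries for 9 of them. Library 13 had a median of 143% and was the highest of all 16 for 4 genes (Elovl3, Slco1a1, Cyp2d9 and Serpina1e). In the other CryDKO libraries the medians were 29.0%, 64.8% and 27.5% in libraries 10, 15 and 16, and 17.1%, 18.6% and 39.1% in libraries 11, 12 and 14. In WT they were 84.0% to 126% at CT8 and 131%, 53.7%, 109.9% and 67.6% in libraries 5 to 8. The SD of log2 CPM within a group had a median over the 10 genes of 0.34 and 0.67 in WT at CT8 and CT16, and of 1.69 and 1.65 in CryDKO. Over all genes tested it was 0.20 and 0.30 in WT and 0.29 and 0.30 in CryDKO. Within CryDKO at CT8 Nudt7 varied least (0.28) and Serpina1e most (2.24).

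**Figure D3:**
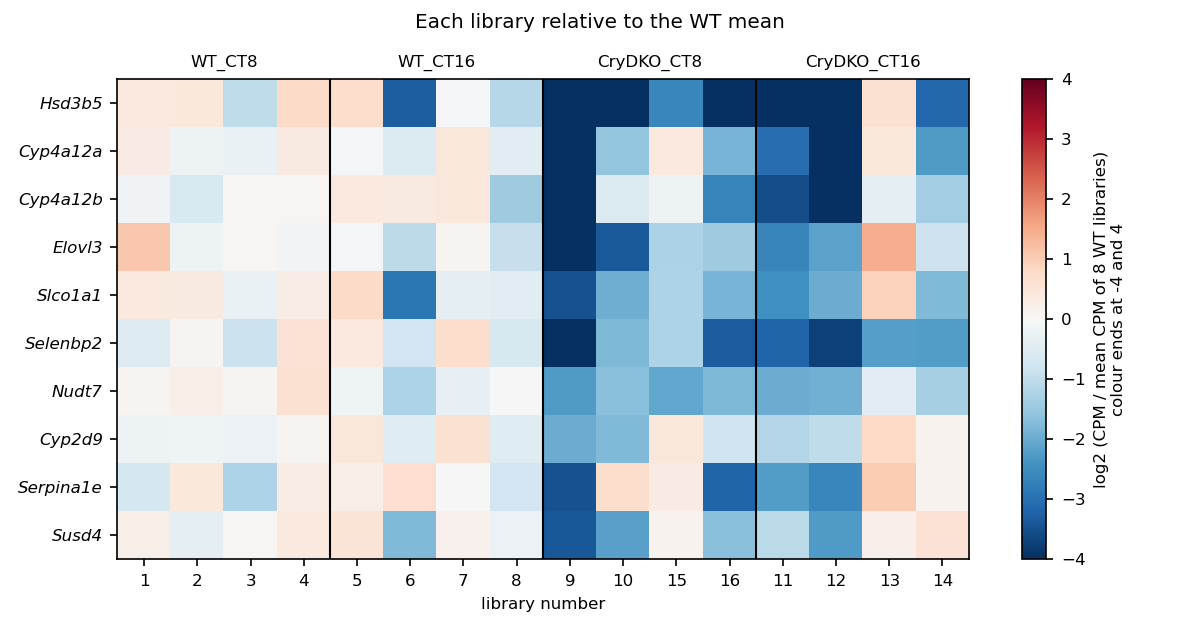
Heat map of log2 of CPM over the mean CPM of the 8 WT libraries, genes in rows and libraries in columns by group; blue is below and red above that mean, and colour ends at -4 and 4. Library 9 is blue in all 10 rows, while library 13 is red in 7 rows and blue for Cyp4a12b, Nudt7 and Selenbp2.

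Each gene's log2 CPM correlated across the 16 libraries with the mean of the other 9, from r = 0.74 for Serpina1e to 0.95 for Hsd3b5; the points share group means, so this is a description. The genes outside the set most like its mean were C6 (r = 0.96), a complement component, Alas2 (0.96), an enzyme of heme synthesis, Cyp7b1 (0.95), an oxysterol hydroxylase, Ces3a (0.94), a carboxylesterase, and Mup21 (0.92), a major urinary protein. In CryDKO at CT8 edgeR called Alas2 (-1.02, adjusted p = 0.0457), Cyp7b1 (-1.59, adjusted p = 0.0365), Ces3a (-1.23, adjusted p = 0.00524) and Mup21 (-3.66, adjusted p = 0.0156) lower, and C6 was not called (-1.76, adjusted p = 0.125). Slc15a5, Lama3, Ttc39c, Mup3 and Mup20 followed, with r from 0.90 (Mup20) to 0.92 (Slc15a5). At CT16 none of these genes was called by edgeR, with C6 at -0.75 (adjusted p = 0.570) and Slc15a5 at -1.46 (adjusted p = 0.0534).

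Time of dosing gave no call among the 10 genes. Between CT16 and CT8 in WT edgeR called 0 of 10, beside 1.24% of all genes higher and 1.3% lower; in CryDKO it called 0 of 10, beside 0% of all genes higher and 0% lower. Unadjusted p was under 0.05 for 1 of 10 in WT and 2 of 10 in CryDKO, and DESeq2 and limma voom called 0 in both. Over all 14484 genes 3830 had such a p in WT, and in CryDKO 938 had an unadjusted p under 0.05, and DESeq2 called 14 and limma voom 0. Nudt7 had the WT change nearest to a call (-0.64 ± 0.30, adjusted p = 0.188 by edgeR), with every CT16 library under every CT8 library, as for 7.12% of all genes. In CryDKO Elovl3 changed by 2.05 ± 0.94 (adjusted p = 0.769) and Nudt7 by 0.65 ± 0.31 (adjusted p = 0.769), not called.

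A genotype difference that differs between the times needs its own test, and none of the 10 passed it: edgeR called 0 for the interaction, as did DESeq2 and limma voom, with 2 of 10 at an unadjusted p under 0.05, as had 1927 of all 14484 genes. Over all genes 0.0276% were called higher and 0.0138% lower. The difference was 1.29 ± 0.43 for Nudt7 (adjusted p = 0.251), 2.76 ± 1.27 for Elovl3 (adjusted p = 0.373) and 3.68 ± 1.89 for Hsd3b5 (adjusted p = 0.418) by edgeR, the genotype change being less negative at CT16 for Nudt7 and Hsd3b5 and above 0 for Elovl3. For some other genes the errors leave room for large differences in both directions, with an SE of 1.39 for Cyp4a12a. For Nudt7, Elovl3 and Hsd3b5 that room was mostly above 0, though none was called.

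Among genes of growth hormone signalling and its outputs, 3 of 16 fell and 2 rose in CryDKO at CT8. At CT16, 3 fell and 3 rose. The list medians were -0.09 at CT8 and 0.38 at CT16. Of all genes tested, 20.3% were called lower and 18.7% higher at CT8, and 9.15% and 9% at CT16. The receptor gene Ghr had CPM of 417, 432, 445 and 425 in WT at CT8, 573, 401, 429 and 446 in WT at CT16, 139.7, 274, 311 and 279 in CryDKO at CT8 and 306, 214, 211 and 264 in CryDKO at CT16. All CryDKO values were under all WT values, with changes of -0.78 ± 0.21 at CT8 (adjusted p = 0.00606) and -0.89 ± 0.20 at CT16 (adjusted p = 0.00580) by edgeR. Bcl6, the male-biased repressor that Stat5 competes with, fell at CT8 (-1.52 ± 0.35, adjusted p = 0.00409) and at CT16 (-1.57 ± 0.36, adjusted p = 0.00854), and Igf1, the circulating growth factor made under growth hormone, fell at CT8 (-0.63 ± 0.21, adjusted p = 0.0220) and at CT16 (-0.70 ± 0.21, adjusted p = 0.0253). Hnf4a, a hepatocyte transcription factor, rose at both times (0.84 ± 0.17 and 0.70 ± 0.17), Igfbp3 rose at CT8 (2.11 ± 0.69, adjusted p = 0.0277 by edgeR), and Socs2 (1.24 ± 0.37, adjusted p = 0.0335) and Stat5a (0.56 ± 0.17, adjusted p = 0.0313) rose at CT16. Socs2, a feedback inhibitor and Stat5 target, thus moved opposite to Igf1 at CT16. Jak2 (-0.14 ± 0.15 and -0.17 ± 0.15) and Stat5b (0.34 ± 0.17 and 0.45 ± 0.17) were not called, and neither was Cux2 (0.92 ± 0.64 and 0.85 ± 0.63). Between times in WT, Stat5a was the only gene of this list called (-0.66 ± 0.17, adjusted p = 0.0467 by edgeR), a call lost without library 4, 5 or 6, when edgeR called 0 genes lower. Scaling by library size alone called 2 higher and 5 lower at CT8, and 2 higher and 3 lower at CT16, Stat5a not among them.

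Of 14 genes in a second list of male-type pulse genes, 12 passed the filter on low counts. Of those, 4 fell at CT8 and none at CT16, beside 20.3% and 9.15% of all genes tested. The 4 were Mup1 (adjusted p = 0.00236), Mup3 (-2.22 ± 0.46, adjusted p = 0.00167), Ttc39c (-1.32 ± 0.36, adjusted p = 0.00935) and Cyp7b1 (-1.59 ± 0.55, adjusted p = 0.0365). Mup1 passed the filter only through WT, so the count is a description. The Mup genes encode urinary pheromone carriers; their copies are so alike that reads may be assigned to the wrong one, and Mup1 had 16 to 41 reads in each WT library at CT8 but only 3 over the CryDKO libraries of that time, too few for a fold. Scaling by library size alone called 8 lower at CT8 and 1 at CT16.

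Female-type genes, which the pulsed pattern holds down, were called in the other direction: of 26 in the list 20 passed the filter on low counts, 10 were called higher at CT8 and 5 at CT16, and none lower. Cyp2b10, Cyp2b13, Cyp3a44 and Sult3a1, low or without reads in most WT libraries, passed that filter only through CryDKO. The counts for this list are therefore a description. Over all genes tested 18.7% were called higher at CT8 and 9% at CT16. Cyp2b9, a female-type P450, had CPM of 1.73, 1.45, 1.59 and 0.375 in WT at CT8, 2.39, 1.40, 1.43 and 2.13 in WT at CT16, 329.7, 126, 149 and 331 in CryDKO at CT8 and 355, 384, 55.4 and 151 in CryDKO at CT16. It rose by 7.50 ± 0.73 at CT8 (adjusted p = 2.65e-05) and 7.01 ± 0.71 at CT16 (adjusted p = 5.9e-05, edgeR), and all CryDKO libraries were above all WT libraries. Cyp2c40 (3.07 ± 0.45 and 2.53 ± 0.43), Cyp2c69 (3.41 ± 0.73 and 2.96 ± 0.70) and Cyp3a44 were also among those that rose at both times. Cyp2b10, Cyp2b13, Cyp17a1, Sult1e1 and Prom1 were among those that rose at CT8, where scaling by library size alone called 9.

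Cyp2b13, a P450 close in sequence to Cyp2b9, divided the CryDKO libraries as Serpina1e did. Its CPM was 130 in library 9, 184 in library 16, 74.7 in library 11 and 354 in library 12, which held 231, 284, 553 and 426 CPM of Serpina1e. It was 0.270 in library 10, 0.166 in library 15, 0.400 in library 13 and 0.666 in library 14, which held 4247, 3292, 5293 and 2875 CPM of Serpina1e. In WT 7 of 8 libraries had 0 reads of Cyp2b13 and library 8 had 2 reads. Hsd3b5, Cyp4a12b and Selenbp2 were also lower in each of libraries 9, 16, 11 and 12 than in libraries 10, 15, 13 and 14. Cyp4a12a, Elovl3, Slco1a1, Nudt7, Cyp2d9 and Susd4 overlapped between these sides. The second male-type list summed to 1880 to 3621 CPM against 5440 to 13118. The female-type list, which holds Cyp2b13 itself and Cyp2b9, summed to 1135 to 1836 CPM against 297 to 665. Each dosing time has libraries on both sides. The split was seen in the values and not tested. Cyp2b9, at 55.4 to 384 CPM in the 8 CryDKO libraries, divided them in the same way, with a smaller difference between the sides.

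**Figure D4:**
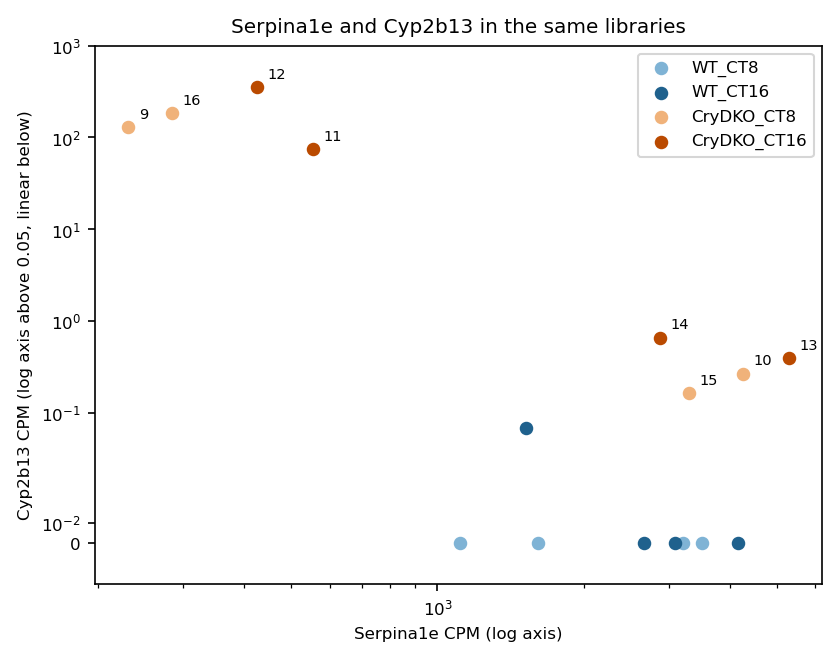
Serpina1e CPM (horizontal, log axis) against Cyp2b13 CPM (vertical, log above 0.05 and linear below) in each library, coloured by group, with numbers on the CryDKO points. Libraries 9, 16, 11 and 12 sit at the upper left, and libraries 10, 15, 13 and 14 at the lower right near the WT libraries.

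Among members of the same gene families, 38 paralogs were listed and 31 passed the filter, of which 10 rose and 5 fell at CT8, and 2 rose and 3 fell at CT16, with list medians of 0.34 and 0.18. Over all genes tested 18.7% rose and 20.3% fell at CT8, and 9% rose and 9.15% fell at CT16. Of the paralogs, scaling by library size alone called 4 higher and 5 lower at CT8. Cyp2d26 was higher at CT8 (0.78 ± 0.18, adjusted p = 0.00268 by edgeR) and Cyp2d13 lower (-1.41 ± 0.33, adjusted p = 0.00351). Hsd3b2 was lower at CT8 (-1.58 ± 0.36, adjusted p = 0.00385) and Hsd3b3 at CT16 (-0.91 ± 0.22, adjusted p = 0.00816), and the 5 genes Hsd3b2 to Hsd3b6 summed were lower at CT16 (-0.91 ± 0.24, adjusted p = 0.0152 by edgeR). Cyp4a32 fell at both times (-1.21 ± 0.20 and -0.84 ± 0.20), while Cyp4a10, a target of the fatty acid receptor PPAR-alpha, rose at both (1.59 ± 0.55 and 2.03 ± 0.56), the CT8 call being lost by library size alone. Nudt12, another peroxisomal hydrolase, fell at both (-0.65 ± 0.13 and -0.82 ± 0.13).

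**Figure D5:**
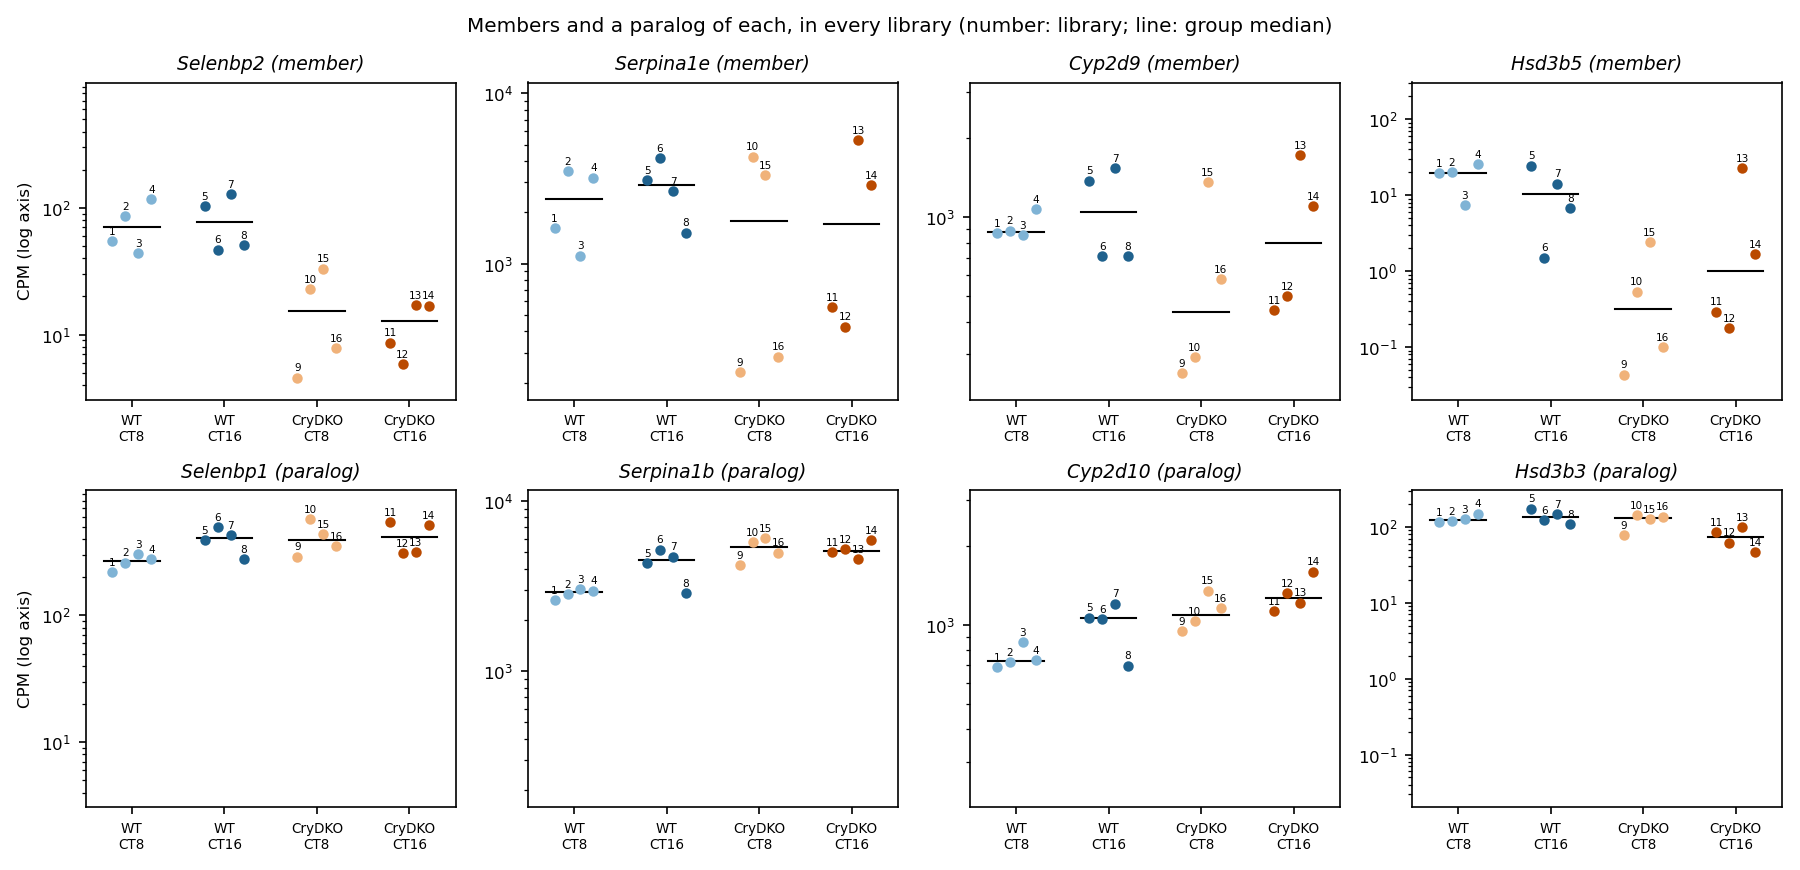
CPM on a log axis of 4 genes of the set (upper row) and a paralog of each (lower row, same scale in each column) in all 16 libraries, with library numbers and group medians. In the 8 CryDKO libraries Serpina1e spans 231 to 5293 CPM and Serpina1b 4199.5 to 6022, and Selenbp2 spans 4.58 to 33.2 CPM and Selenbp1 291 to 578.

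Some other measures also moved with genotype, and their part in the changes of the 10 genes was not tested. Of all genes tested, 18.7% were called higher and 20.3% lower at CT8, and 9% and 9.15% at CT16. Of 11 hepatocyte markers 7 rose at CT8 and 3 at CT16, and none was called lower; the sum was 108783 to 164807 CPM in CryDKO and 54734 to 101689 CPM in WT. Kupffer cell markers rose for 1 of 9 at CT8 and 3 of 9 at CT16 (sums of 59.7 to 169 CPM in CryDKO and 23.9 to 93.3 in WT). Stellate cell markers rose for 4 and 2 of 9 (51.5 to 263 against 73.0 to 161 CPM). Bile duct markers rose for 2 and 1 of 5, with 1 lower at CT16 (47.4 to 146 against 25.8 to 91.7 CPM). Endothelial markers rose for 0 of 7 at CT8 and 1 at CT16 (46.6 to 87.4 against 29.5 to 77.7 CPM), and of 6 leukocyte markers 3 passed the filter and 0 were called (3.28 to 13.1 against 1.62 to 9.62 CPM). Scaling by library size alone left 4 and 3 hepatocyte, 0 and 1 Kupffer, 2 and 0 stellate and 1 and 0 bile duct markers called higher at CT8 and CT16. Of 4 Y-linked genes tested, 4 fell at CT8 and 2 at CT16, for example Eif2s3y (-1.05 ± 0.14, adjusted p = 3.85e-05 at CT8 by edgeR); the sum was 95.1 to 161 CPM in CryDKO and 160.3 to 217 in WT.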

How the data were processed

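Polyadenylated liver RNA was sequenced in 16 libraries. Per the submitters' processing notes, the tools were FastQC, Trimmomatic 0.35, STAR 2.5.3, HTSeq 1.99.2 and DESeq2, with the build GRCm39 (mm39). Which annotation and strand setting were used is not given in the sources used here. Raw counts, whole reads per gene symbol with no normalization, were deposited by the authors. Another deposited table, the counts over size factors, was not used here. In it the 4 columns of CryDKO at CT8 hold the counts of that group under exchanged running numbers; library numbers here follow the count table, and group membership is the same in both. Columns were assigned to groups by name, since they carry a running number.

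The filter filterByExpr of edgeR 4.0.16 (R 4.3.3) kept 14484 genes. TMM scaling and robust quasi-likelihood fits over all 16 libraries gave 5 two-sided comparisons, with Benjamini-Hochberg adjustment over all genes tested. The SE, which is approximate, was taken from the log2 change and its F statistic. Alternatives were DESeq2 1.42.0, limma 3.58.1 voom, DESeq2 size factors, library size alone, no low count filter, no robust option, only the groups compared, and each library left out. The code was tested on simulated counts. Depth was 18083916 to 29934138 reads in genes per library.

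All 10 genes are named, with the called genes of lists of the pathway, paralogs and cell markers, and the genes most correlated with the mean of the set; 1 called gene of a list is not reported here. The members and lists were chosen with earlier results of these data known. Exon lengths and shared windows (GENCODE) and upstream sequences (RefSeq) are on GRCm38, another build than that of the counts, and were handled in Python 3.11.15.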

Additional observations from a re-analysis of the deposited data

Results flagged for a closer look

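In 7 of 40 sets of 4 libraries (10 genes in 4 groups), the highest or lowest value stood apart from the other 3 by more than Dixon's 95% limit. Chance alone flags about 1 in 20 such sets where values follow a normal distribution, which was not checked for these CPM. The sets are not independent, since the genes vary together.

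In CryDKO at CT16, 4 of the 7 were library 13: Hsd3b5 at 22.6 CPM, Cyp4a12a at 74.5 CPM, Elovl3 at 24.1 CPM and Slco1a1 at 206 CPM, each the highest of its group. In WT at CT8, Elovl3 stood apart at 18.6 CPM in library 1 and Cyp2d9 at 1071 CPM in library 4. In WT at CT16, Cyp4a12b was low at 6.38 CPM in library 8.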

How the results depend on the processing

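No paired analysis was possible because the columns of the count table carry a running number over the series and no replicate number. The number of the 10 genes called lower at CT8 (3) was 5 by library size alone, by DESeq2, without the robust option and with only the groups compared, and 7 by limma voom. Leaving out each library in turn gave 1 (without library 4) to 5 (without library 13 or 15). At CT16 (2) it was 1 without the low count filter and with only the groups compared, 3 by limma voom, and 1 to 2 with a library left out. The log2 change of no gene reversed a call. Nudt7 at CT8 and Selenbp2 at CT16 were called in all 23 alternative fits.

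Scaling by library size alone moved the median of all genes to -0.36 at CT8, -0.16 at CT16, -0.29 for time in WT and 0.20 for the interaction, and called 961 genes higher and 5127 lower at CT8 (2706 and 2943 with TMM) and 605 higher and 1883 lower at CT16 (1303 and 1326 with TMM). With only the groups compared, 826 were higher at CT16. Under library size alone all 10 genes were below 0 for time in WT, against 6 with TMM. For time in WT, leaving out a library gave 0 to 1890 genes higher (179 in the full fit) and 0 to 1690 lower (188), the highest without library 8; DESeq2 gave 827 and 719, limma voom 318 and 637, only the groups compared 373 and 339, library size alone 18 and 354, and no low count filter 441 higher. For time in CryDKO the counts were 0 to 7 in each direction. For the interaction (4 and 2), DESeq2 gave 69 and 65, no low count filter 14 and 16, library size alone 0 and 0, and leaving out a library 0 to 275 higher and 0 to 293 lower, the highest without library 8. The causes were not tested. Hsd3b5, at 1 to 5 reads in 4 CryDKO libraries, is limited by depth.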
